A study of Danio rerio with 6 samples.

Results

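The microRNAs (miRNAs) miR-10 and miR-196, most of whose genes lie in the Hox clusters, were followed in small RNA libraries of zebrafish embryos. The members were all entries of the miRNA table named dre-miR-10 or dre-miR-196, whatever the letter or arm that follows. They were thus chosen by name and not by a measured value, though with earlier results of these data known. These were 16 of 464 entries, 9 of miR-10 and 7 of miR-196. The libraries came from 2 groups of F1 embryos of the wild type AB strain at 5.5 h post fertilization (50% epiboly, the onset of gastrulation), with 3 libraries per group, each from a pool of 100 whole embryos. Parents of the F1-γ embryos had been exposed during gametogenesis to a cobalt gamma source at 8.7 mGy/h, a total dose of 5.2 Gy, and the embryos were collected 1 year later. Parents of the F1-C embryos were the non-exposed controls, and nothing was given to the embryos of either group. Each library was made from pooled whole embryos, so fewer expressing cells and less miRNA per cell cannot be told apart.

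A mature miRNA guides Argonaute proteins to mRNAs that pair with its seed, and each hairpin precursor can give a 5p and a 3p arm, of which usually a single arm is kept. Hox genes encode the transcription factors that set position along the head-to-tail axis, and they are switched on in order along each cluster from gastrulation onwards. Most genes of miR-10 lie near the Hox4 paralogues and those of miR-196 near the Hox9 paralogues, so that miR-196 belongs to the later, more posterior part of the clusters. In zebrafish, miR-10 is known to repress hoxb1a and hoxb3a, which act in the hindbrain and the anterior spinal cord, and miR-196 is known in vertebrates to repress Hoxb8.

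The position of the precursors was read from the RefSeq gene table of zebrafish (GRCz12tu), used for names and neighbours only because the reads were mapped to the older build GRCz10. It lists 10 precursors, 5 of each family, and 9 of them have a Hox gene as a neighbour. The gene of miR-10c lies between hoxb5a and hoxb4a. The first gene of miR-10b lies beside hoxd4a, within the annotated span of hoxd3a, and the second between hoxc5a and hoxc4a. The gene of miR-10a lies within the span of hoxb1b, next to hoxb5b. The exception is the gene of miR-10d, which lies between lnpk and mtx2 on a chromosome with 0 listed Hox genes. Those genes flank the HoxD cluster of other vertebrates, and the second zebrafish HoxD cluster is known to have lost its protein-coding Hox genes while keeping this miRNA. For miR-196, the precursors of miR-196b, miR-196d and miR-196c lie between hoxb10a and hoxb9a, between hoxa10b and hoxa9b, and between hoxc11b and hoxc6b. Those of miR-196a lie between hoxc10a and hoxc9a and within the span of hoxa9a.

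The deposited values are estimated counts from miRDeep2, in which each read is divided by its number of matching loci, and they are not scaled to depth. The miRNA total was between 704953 and 1464138 counts per library, and all 3 F1-γ libraries were deeper than all F1-C libraries. F1-γ replicate 2 stood apart from the other libraries of its group. Set against them, its chi-square per degree of freedom over miRNA counts, which sampling noise alone would put at 1, was 580 and 344, compared with 81.7 between F1-γ replicates 1 and 3 and 31.6 to 49.5 between control libraries. Values without F1-γ replicate 2 are given for the number of miRNAs called below and for the summed miR-10 level. They are also given for the 3 entries of miR-10 that were tested and for the ratio of miR-10b to miR-10c. Levels are given as CPM, the count divided by a scaled library size, times 1000000. The scaling factor is a trimmed mean of M-values (TMM), which assumes that most miRNAs are unchanged. Of 464 entries, 122 were above 30 counts in all 6 libraries and were tested with edgeR's quasi-likelihood test, and p-values were adjusted over these 122 by the Benjamini-Hochberg method. The log2 fold change (log2 FC) is that of F1-γ over the controls, so positive values are higher after parental exposure. A call needed an adjusted p under 0.05 together with a log2 FC outside the range from -0.6 to 0.6. There were 11 calls, 9.02% of the entries tested, of which 5 (4.1%) were higher and 6 (4.92%) lower in F1-γ. That number was 4 without F1-C replicate 2, 6 without F1-C replicate 3, 26 without F1-γ replicate 1 and 15 without F1-γ replicate 2. The split of higher and lower calls was 3 and 13 with upper-quartile normalization, 4 and 9 with RLE normalization, 5 and 10 with DESeq2 and 4 and 10 without the miR-430 entries. miR-430 is the miRNA family that clears maternal mRNA around gastrulation. Its mean share of the miRNA counts was 86.8% for the controls and 86.3% for F1-γ. Single libraries lay between 85.8% and 87.6% for the controls and between 83.9% and 88.4% for F1-γ. With no library of another stage, this share does not verify the labelled stage or an equal stage of the groups.

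At 50% epiboly miR-10 was well counted and miR-196 was close to the limit of detection. Summed over its entries, miR-10 averaged 1565 ± 118 CPM in the controls and 2029 ± 342 CPM in F1-γ (SD, n = 3 libraries each). F1-γ replicate 2 was the highest library, at 2423 CPM. The log2 ratio of the miR-10 means, F1-γ over the controls, was 0.37 with it and 0.27 without it. Summed over its entries, miR-196 averaged 18.3 ± 7.41 CPM in the controls and 14.6 ± 2.09 CPM in F1-γ (SD, n = 3 libraries each). The sum of miR-10 was thus 85.5-fold that of miR-196 in F1-C and 139-fold in F1-γ. CPM counts whole mature miRNAs, so no length correction was made, but adapter ligation can favour some sequences over others. In raw counts, miR-10 had 12973 over the 6 libraries and miR-196 had 118. On the CPM scale the summed miR-10 level was 1430 to 1650 in F1-C and 1811 to 2423 in F1-γ, without overlap. Such separation was found for 33.6% of the single miRNAs tested, and no such share was computed for sums. As a share of all miRNA counts, miR-10 took between 0.127% and 0.180% for the controls and between 0.177% and 0.234% for F1-γ. These ranges of the share overlapped.

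**Figure D1:**
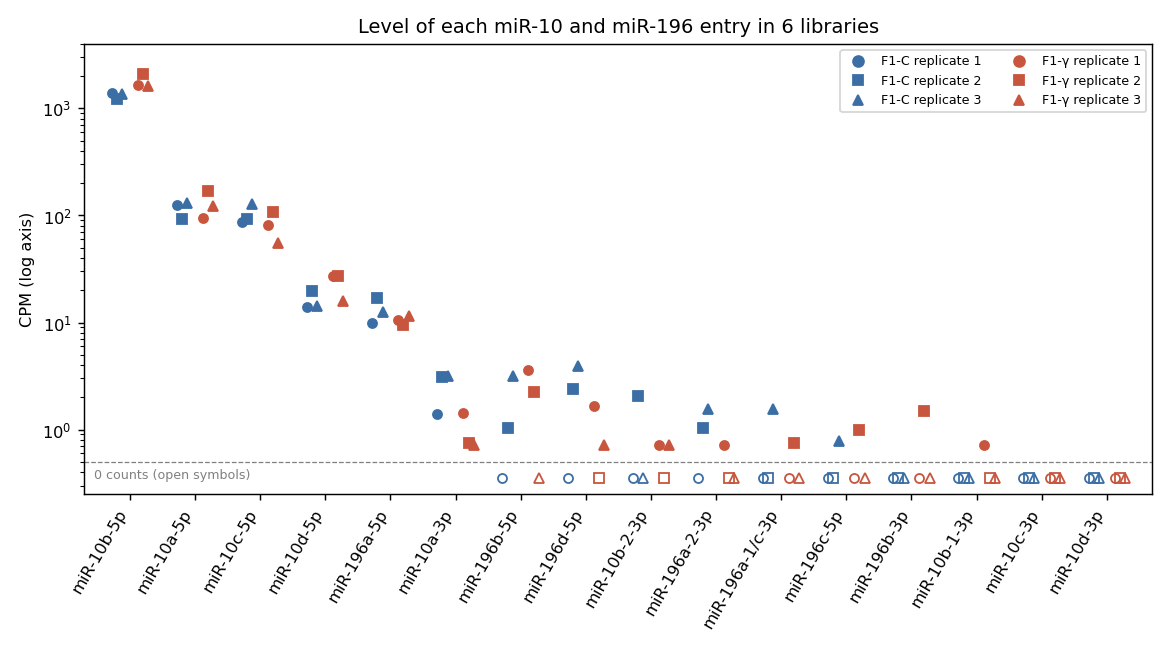
Level of each of the 16 entries in CPM (log axis) in the 3 F1-C libraries (blue) and the 3 F1-γ libraries (red), ordered by mean level, with 1 symbol per library and open symbols for 0 counts. The 5p entry of miR-10b stands between 1219 and 2119 CPM, and 11 entries, among them all 3p entries, lie at or below 4 CPM in every library.

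A steep order was found within the miR-10 family. dre-miR-10b-5p, made from the genes beside hoxd4a and hoxc4a, ranked 31 of 464 by mean CPM, and 15 among entries outside the miR-430 family. In F1-C its mean level was 11.3-fold that of dre-miR-10a-5p, which ranked 85, followed by dre-miR-10c-5p at rank 94 and dre-miR-10d-5p at rank 174. dre-miR-10a-5p was above dre-miR-10c-5p in 6 of 6 libraries, but by as little as 1.01-fold in the closest library and at most by 2.23-fold, so these neighbours in the order were close. dre-miR-10d-5p was above dre-miR-196a-5p, the highest miR-196 entry at rank 198, in 6 of 6 libraries, although on 7 to 38 counts each.

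Nearly all counts of miR-10 were on the 5p arm. For miR-10b the 5p arm held 11287 counts over the 6 libraries, against 1 count of dre-miR-10b-1-3p and 4 counts of dre-miR-10b-2-3p. Its share was lowest in F1-C replicate 2, at 99.8% (95% exact Clopper-Pearson interval 99.4 to 99.98), and it was 100% in 3 libraries. For miR-10a the 5p share was between 96.8% in F1-C replicate 2 (exact interval 91.0 to 99.3) and 99.6% in F1-γ replicate 2 (exact interval 97.5 to 99.99). dre-miR-10a-3p was the only 3p entry with a count in every library, with 1, 3 and 4 counts for the controls and 2, 1 and 1 for F1-γ. dre-miR-10c-3p and dre-miR-10d-3p had 0 counts in all 6 libraries, where a count of 0 allows up to 3 counts, or between 2.15 and 4.21 CPM depending on the library. The 5p share of miR-196 rested on few counts. For miR-196a and miR-196c together it was lowest in F1-C replicate 3, at 81.0% of 21 counts (exact interval 58.1 to 94.6). For miR-196b it was lowest in F1-γ replicate 2, at 60% of 5 counts (exact interval 14.7 to 94.7). These intervals and floors cover counting error only, because amplified reads without molecular identifiers are not independent molecules.

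The entries share some reads. In 5 of 6 libraries at least 1 of dre-miR-10a-5p, dre-miR-10b-5p and dre-miR-10c-5p had a count that was not whole, while the sum of these 3 entries was whole, within 0.02, in 6 of 6 libraries. In F1-γ replicate 3, for example, dre-miR-10b-5p had 2228.66 counts and dre-miR-10c-5p had 76.33. The same was found for dre-miR-196a-5p, dre-miR-196c-5p and dre-miR-196d-5p, with fractions in 3 libraries and a whole sum in 6 of 6. Reads were therefore divided within these sets, and how many reads were divided cannot be told from the fraction. dre-miR-10d-5p and dre-miR-196b-5p were whole in every library. Fractions were common in the table, since 122 entries, 30.6% of those with a count, held 1 in at least 1 library.

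The comparison between the groups asks whether parental irradiation left a difference in these miRNAs in the offspring. Of the 16 entries, 3 passed the count minimum, all of them 5p entries of miR-10, and 0 of the 3 were called by edgeR's quasi-likelihood test, where the share over all tested miRNAs was 9.02%. At an unadjusted p below 0.05 there was 1 of the 3, dre-miR-10b-5p, beside 27.0% of all tested, and neither edgeR's exact test nor DESeq2 called a member. The median log2 FC was 0.14 over these 3 entries and 0.13 over all 122. The other 13 entries are described by their counts.

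dre-miR-10b-5p had 1385, 1219 and 1374 CPM in F1-C and 1645, 2119 and 1615 CPM in F1-γ. All 3 F1-γ libraries were above all 3 F1-C libraries, with F1-γ replicate 2 the highest. Such separation of the groups was found for 41 of 122 miRNAs tested, or 33.6%, and in the direction of a higher level for 25, or 20.5%. The means were 1326 ± 92.8 CPM for the controls and 1793 ± 283 CPM for F1-γ (SD, n = 3 libraries each). The log2 FC was 0.44 (standard error 0.178, 95% interval 0.04 to 0.83), and edgeR's quasi-likelihood test gave an unadjusted p = 0.0334 and an adjusted p = 0.132, so the entry was not called. Without F1-γ replicate 2 the log2 FC was 0.34 (standard error 0.149, edgeR adjusted p = 0.143), and the remaining F1-γ libraries were still above the controls. The groups were also apart, by a small margin, in CPM of the plain miRNA total (1328 ± 219 and 1802 ± 239, SD, n = 3). The closest libraries were F1-γ replicate 1 at 1570 and F1-C replicate 3 at 1500. In CPM of the counts outside miR-430 they were apart as well (10042 ± 1156 and 13537 ± 3611, SD, n = 3). The closest there were F1-γ replicate 3 at 11139 and F1-C replicate 1 at 10849. With upper-quartile normalization, which lowered the median log2 FC of all tested miRNAs by 0.36, the log2 FC of dre-miR-10b-5p was 0.10 (edgeR adjusted p = 0.749).

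Markers of tissues that form after this stage were counted beside these values, and their part in the result was not tested. For muscle, 6 of 10 entries of miR-1, miR-133 and miR-206 had a count, and none was above the minimum. Their summed level was 33.3 to 42.1 CPM in F1-C and 69.8 to 146 CPM in F1-γ, without overlap. Its largest part was 1 entry, dre-miR-1-3p, with 16, 32 and 26.5 counts for the controls and 68.5, 114.5 and 153 for F1-γ. The 5p arm of miR-1 and the 5p arms of miR-133a, miR-133b and miR-133c were at 0 in all libraries. For red blood cells, all 3 entries of miR-144 and miR-451 had a count, and none was above the minimum. Their sum was 40.7 to 47.1 CPM in F1-C and 59.1 to 62.3 CPM in F1-γ, without overlap. By entry, dre-miR-144-5p had 16, 20 and 29 counts for the controls and 55, 44 and 52 for F1-γ. dre-miR-451-5p had 13, 22 and 27 counts for the controls and 29, 35 and 32 for F1-γ. Only 0, 0 and 4 counts for the controls and 1, 0 and 2 for F1-γ were of dre-miR-144-3p. These counts are not scaled to depth. In CPM only dre-miR-144-5p was apart, while dre-miR-144-3p and dre-miR-451-5p overlapped. Among single miRNAs tested, 33.6% were without overlap in CPM. No such share was computed for sums or for entries below the minimum. The liver entry dre-miR-122-5p was at 16.4 to 21.2 CPM in F1-C and 21.0 to 35.8 CPM in F1-γ. For neural tissue, 8 of 8 entries of miR-9 and miR-124 had a count. Their sum was 907 to 1141 CPM in F1-C and 862 to 1160 CPM in F1-γ. Most of it came from dre-miR-124-2/3/5-5p and dre-miR-9-5p. dre-miR-124-3p had only 0, 2.98 and 0 counts for the controls and 0, 2.02 and 1.02 for F1-γ. Of the 3 neural entries that were tested, 0 were called by edgeR's quasi-likelihood test, its exact test or DESeq2. In the first, 1 had an unadjusted p below 0.05. The shares over all miRNAs tested in the quasi-likelihood test were 9.02% called and 27.0% with an unadjusted p below 0.05. The log2 FC of the neural entries was 0.42 for dre-miR-9-5p, -0.0081 for dre-miR-9-3p and -0.24 for dre-miR-124-2/3/5-5p. The sum thus joins entries that went opposite ways.

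dre-miR-10a-5p, from the gene within hoxb1b, had 126, 93.3 and 131 CPM in F1-C and 94.7, 168 and 123 CPM in F1-γ. The groups overlapped, and the lowest and the highest library of each group were far apart on the scale of the difference. The means were 117 ± 20.6 CPM (SD, n = 3) and 129 ± 36.9 CPM (SD, n = 3). The log2 FC was 0.14 (standard error 0.253, 95% interval -0.42 to 0.69, edgeR adjusted p = 0.770). Its sign turned with upper-quartile normalization (log2 FC -0.21), without F1-γ replicate 2 (-0.064) and without F1-C replicate 2, where it was near 0.

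dre-miR-10c-5p, from the gene between hoxb5a and hoxb4a, had 86.9, 92.7 and 127 CPM in F1-C and 82.3, 109 and 55.3 CPM in F1-γ. The groups overlapped, and F1-γ replicate 3 was the lowest library. The means were 102 ± 21.9 CPM (SD, n = 3) and 82.0 ± 26.6 CPM (SD, n = 3). The log2 FC was -0.33 (standard error 0.277, 95% interval -0.94 to 0.29, edgeR adjusted p = 0.542). Between settings it lay from -0.67 with upper-quartile normalization (edgeR adjusted p = 0.106) to -0.13 without F1-C replicate 3, and it was -0.18 without F1-γ replicate 3 and -0.54 without F1-γ replicate 2.

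**Figure D2:**
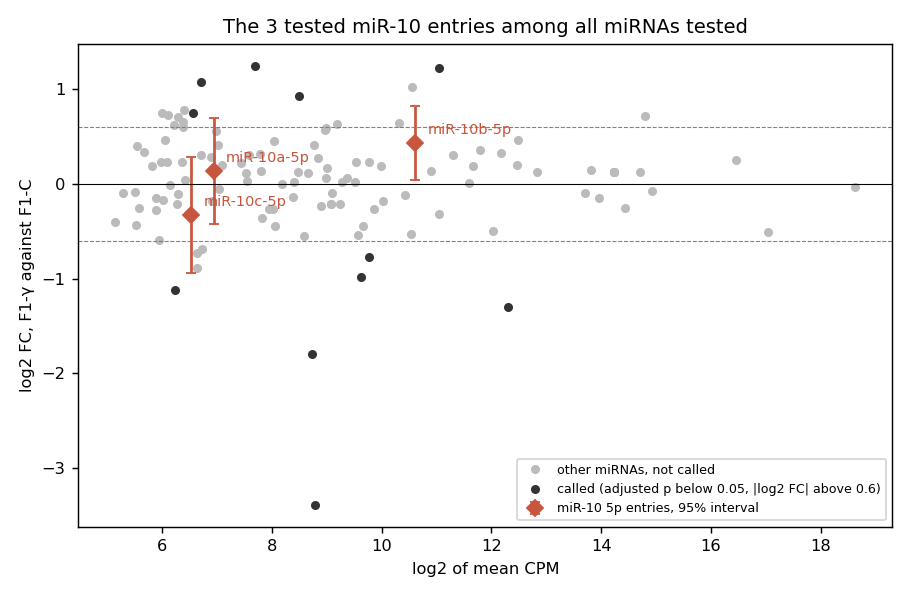
Log2 FC of F1-γ against F1-C for the 122 miRNAs tested, against the log2 of their mean CPM, with the 3 miR-10 entries as red diamonds with 95% intervals and the 11 called miRNAs in black. Dashed lines mark a log2 FC of 0.6 and -0.6. The 3 miR-10 entries lie inside those lines, at 0.44 for miR-10b-5p, 0.14 for miR-10a-5p and -0.33 for miR-10c-5p, among the miRNAs that were not called.

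The make-up of the miR-10 family within a library does not depend on how libraries are scaled. dre-miR-10b-5p took 85.9%, 85.6% and 83.4% of the miR-10 5p counts for the controls and 89.0%, 87.5% and 89.3% for F1-γ. dre-miR-10c-5p took 5.39%, 6.50% and 7.73% for the controls and 4.45%, 4.48% and 3.06% for F1-γ. For each of these the groups did not overlap, with the share of miR-10b above and that of miR-10c below the controls in every F1-γ library. Separation of the groups is common in these data, at 33.6% of the tested miRNAs in CPM and 33.7% of the ratios of 2 tested miRNAs. It is therefore not read as setting these entries apart, though no such background was computed for shares within a family. dre-miR-10a-5p took 7.45% ± 0.781 in the controls and 6.29% ± 1.01 in F1-γ, and dre-miR-10d-5p took 1.03% ± 0.291 and 1.15% ± 0.297 (SD, n = 3 libraries each), with overlapping groups. The shares sum to 100% and so are not independent of each other.

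**Figure D3:**
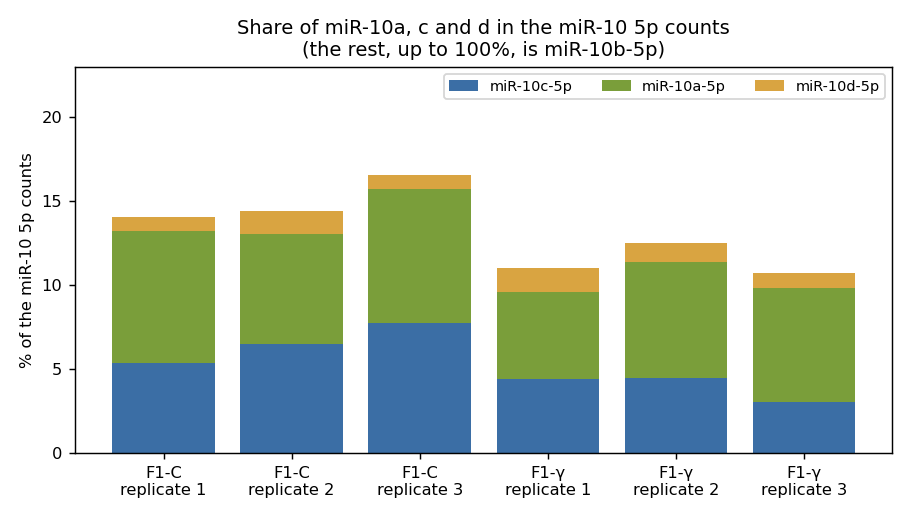
Percent of the miR-10 5p counts taken by miR-10c-5p (blue), miR-10a-5p (green) and miR-10d-5p (yellow) in each of the 6 libraries, with miR-10b-5p as the rest up to 100%. The blue part is 5.39% to 7.73% in the 3 F1-C libraries and 3.06% to 4.48% in the 3 F1-γ libraries.

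The 3 pairs among the tested entries were compared as ratios of counts within a library, a comparison chosen after the data were seen. The ratio of dre-miR-10b-5p to dre-miR-10c-5p was 15.9, 13.2 and 10.8 for the controls and 20.0, 19.5 and 29.2 for F1-γ. Every F1-γ library was above every F1-C library. The groups were likewise apart for 2485 of the 7381 pairs that the 122 tested miRNAs form, or 33.7%. On the log2 scale the ratio was 3.71 ± 0.28 for the controls and 4.49 ± 0.33 for F1-γ (SD, n = 3 libraries each), a difference of 0.78. The p of a two-sided exact permutation test was 0.1, and 0.2 after Benjamini-Hochberg adjustment over the 3 pairs. No smaller p than 0.1 is possible with 3 libraries a group, so the design cannot pass a threshold of 0.05. Leaving out single libraries, the difference stayed between 0.59, without F1-γ replicate 3, and 0.92, without F1-C replicate 1, and it was 0.88 without F1-γ replicate 2. The ratio of dre-miR-10b-5p to dre-miR-10a-5p differed by 0.31 on the log2 scale and that of dre-miR-10a-5p to dre-miR-10c-5p by 0.47, with overlapping groups (two-sided exact permutation test, p = 0.2 for each, adjusted p = 0.2). Because reads were divided among these 3 entries, the division is part of each ratio.

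**Figure D4:**
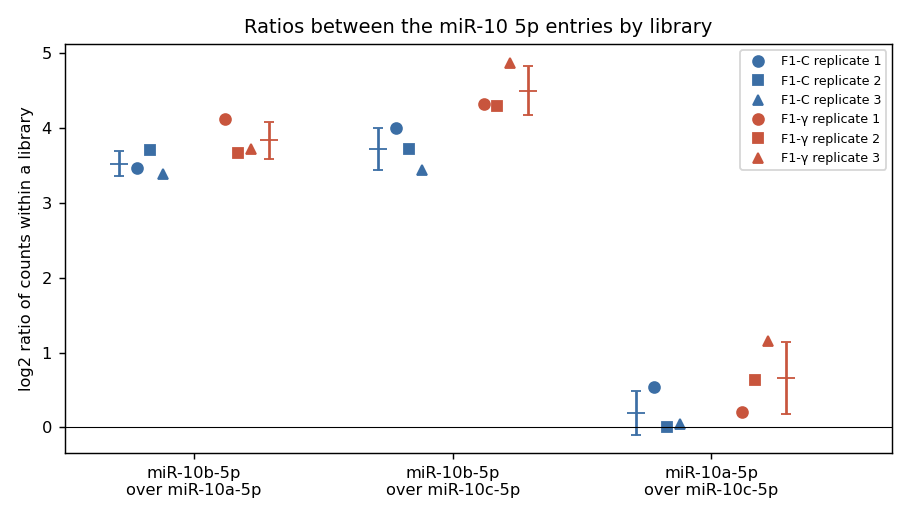
Log2 ratio of counts within a library for the 3 pairs of tested miR-10 5p entries, with 1 symbol per library (F1-C blue, F1-γ red) and the group mean with its SD beside them. Only for miR-10b-5p over miR-10c-5p are the groups apart, at 3.43 to 3.99 in F1-C and 4.29 to 4.87 in F1-γ.

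dre-miR-10d-5p, from the locus without Hox genes, was counted 10, 19 and 18 times in the controls and 38, 36 and 22 times in F1-γ, which is 14.0, 19.5 and 14.1 CPM and 27.2, 26.9 and 15.9 CPM. The groups overlapped in CPM, with F1-γ replicate 3 below F1-C replicate 2. It failed the minimum of more than 30 counts in every library. In the fit without a minimum, over 399 entries of which 6.77% were called, its log2 FC was 0.43 (standard error 0.403, 95% interval -0.36 to 1.23, edgeR adjusted p = 0.745).

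No entry of miR-196 passed the minimum. dre-miR-196a-5p, from the genes beside hoxc9a and hoxa9a, held 7, 16.66 and 16 counts in the controls and 14.66, 12.66 and 16 counts in F1-γ. In CPM these were 9.82, 17.1 and 12.6 for the controls and 10.5, 9.47 and 11.6 for F1-γ, so the F1-γ libraries lay close together and overlapped the controls. In the fit without a minimum its log2 FC was -0.44 (standard error 0.511, 95% interval -1.44 to 0.56, edgeR adjusted p = 0.799), an interval that holds changes of more than 2-fold downwards. The counts of dre-miR-196b-5p were 0, 1 and 4 for the controls and 5, 3 and 0 for F1-γ. Those of dre-miR-196d-5p were 0, 2.33 and 5 for the controls and 2.33, 0 and 1 for F1-γ. dre-miR-196c-5p, from the gene between hoxc11b and hoxc6b, had a count in only 2 libraries, with 1 in F1-C replicate 3 and 1.33 in F1-γ replicate 2.

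The 3p entries of miR-196 had at most 2 counts in any library. dre-miR-196a-1/c-3p, an entry named for a gene of miR-196a and for miR-196c together, had 3 counts in all. dre-miR-196a-2-3p had 4 counts in all and dre-miR-196b-3p had 2, the latter both in F1-γ replicate 2. Such entries show that reads of the family were present, and a difference between the groups was not detectable at this depth. For each of these 3p entries and of dre-miR-196b-5p, dre-miR-196c-5p and dre-miR-196d-5p the groups overlapped.

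miR-99 and miR-100 are sequence relatives of miR-10 that are not encoded in the Hox clusters. Of their 6 entries 2 were tested and 0 were called by edgeR's quasi-likelihood test, its exact test or DESeq2. In the first, 0 had an unadjusted p below 0.05. Over all miRNAs tested, 9.02% were called and 27.0% had an unadjusted p below 0.05 in the quasi-likelihood test. dre-miR-100-5p averaged 5248 ± 653 CPM in the controls and 6030 ± 1056 CPM in F1-γ (SD, n = 3 libraries each). Its log2 FC was 0.20 (standard error 0.206, edgeR adjusted p = 0.599). For dre-miR-99-5p the log2 FC was 0.14 (standard error 0.263, edgeR adjusted p = 0.770). It had 1730, 1898 and 1796 CPM for the controls and 2170, 1172 and 2630 CPM for F1-γ. F1-γ replicate 2 was thus the only F1-γ library below the controls. Among the entries below the minimum, for which no background share was computed, dre-miR-100-2-3p was without overlap, by a small margin, and the others overlapped. It had 11.2, 16.4 and 20.4 CPM for the controls and 20.8, 29.2 and 26.8 CPM for F1-γ. In the fit without a minimum its log2 FC was 0.51 (standard error 0.391, edgeR adjusted p = 0.636).

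**Figure D5:**
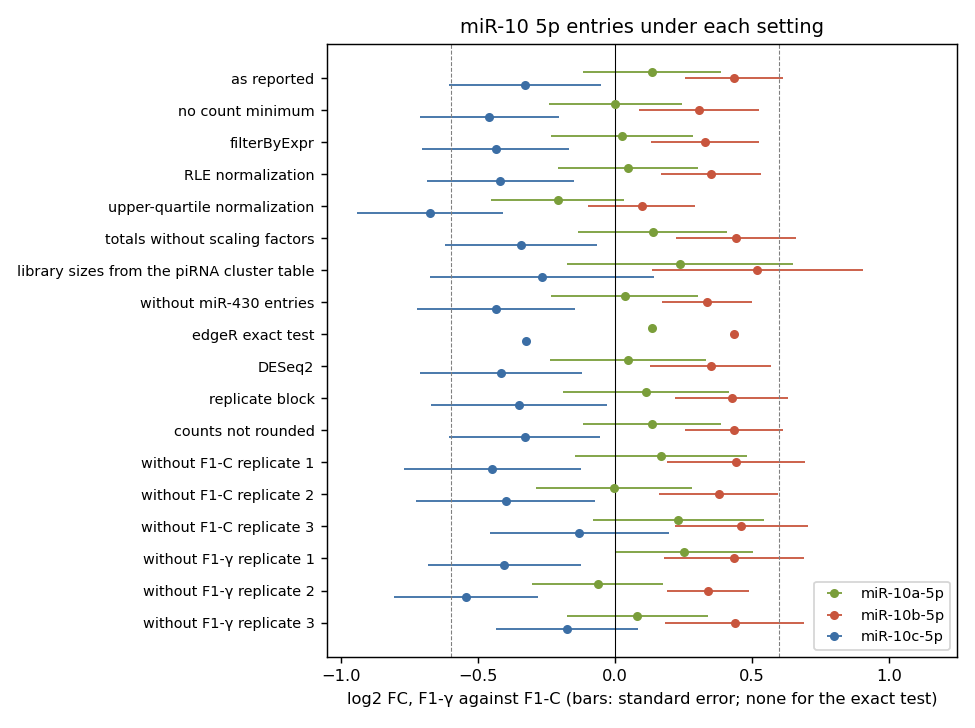
Log2 FC of the 3 tested miR-10 5p entries as reported and under each alternative setting of the fit, with the standard error as bars (not given for the exact test). Dashed lines mark 0.6 and -0.6. miR-10b-5p stays above 0 in every setting shown (0.10 to 0.52), miR-10c-5p below 0 (-0.67 to -0.13), and miR-10a-5p lies on either side of 0 (-0.21 to 0.25).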

How the data were processed

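Small RNA was sequenced from 6 libraries, 3 of F1-C and 3 of F1-γ. The authors trimmed reads with Trim Galore 0.3.7, kept them by quality and length, mapped them to GRCz10 and counted miRNAs with miRDeep2, weighting each read by its number of loci. The deposited values are estimated counts, without scaling. The piRNA cluster table, also deposited as estimated counts, served only as an alternative library size. Libraries were assigned to groups by their labels. The third F1-γ title carries 2 replicate numbers, and the number not used by another F1-γ library was taken.

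Estimated counts were rounded to whole numbers and tested with edgeR 4.0.16 (R 4.3.3; TMM, quasi-likelihood test, no covariate) where every library had more than 30 counts. The authors' methods use edgeR's exact test, tried here as an alternative beside DESeq2 1.42.0. Intervals of log2 FC are 95% intervals from the same fit. Rows of the same name would have been summed, but no name was repeated. The fit was run on simulated counts with larger changes than those of the tested members. Its power for the members was not assessed. Replicate libraries differed by more than sampling noise (chi-square per degree of freedom of 31.6 to 580, where noise alone gives 1), which cannot tell separate samples from repeated preparations. All members were described, and other miRNAs were named only from the lists of relatives and tissue markers. The members and lists were chosen with earlier results of these data known. In all, 18 alternatives were run. The snRNA and lincRNA tables were not used.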

Additional observations from a re-analysis of the deposited data

How the results depend on the processing

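No member was called under any of the 18 alternatives, which covered the count minimum, scaling, library size, the miR-430 entries, the test, the replicate block, rounding, the threshold and each library left out. The number of calls over all miRNAs was 27 without a count minimum, 23 with filterByExpr, 2 with library sizes from the piRNA cluster table, and 4 to 26 when single libraries were dropped. The cause of these differences was not tested. The number of entries tested also differed, at 399 without the minimum and 214 with filterByExpr, against 122 as reported. dre-miR-10b-5p kept its direction under all 18 alternatives (log2 FC 0.10 to 0.52, edgeR or DESeq2 adjusted p 0.132 to 0.749), as did dre-miR-10c-5p (-0.67 to -0.13). The alternative threshold reuses the fit as reported, so its log2 FC and its edgeR adjusted p of 0.132 for dre-miR-10b-5p could not differ. dre-miR-10a-5p reversed with upper-quartile normalization (-0.21), and with 1 library left out its log2 FC lay between -0.064 and 0.25. The log2 ratio of the summed miR-10 level, 0.37 as reported, moved to 0.037 with upper-quartile normalization, and lay between 0.27 and 0.41 with 1 library left out. That of the summed miR-196 level, -0.33 as reported, was -0.66 with upper-quartile normalization and lay between -0.65 and -0.10 with 1 library left out. Without single libraries, the log2 difference of the ratio of miR-10b to miR-10a lay between 0.17 and 0.41 and that of miR-10a to miR-10c between 0.22 and 0.70.

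No sign was seen that the replicate numbers pair the samples, though 3 libraries a group are too few to exclude it. Deviations of same-numbered libraries from their group means correlated across miRNAs with r of -0.093, 0.071 and -0.020. Between differently numbered libraries r lay from -0.198 to 0.209. The replicate number as a block gave 12 calls, none of them a member (dre-miR-10b-5p log2 FC 0.43, edgeR adjusted p = 0.218). Depth limits miR-196 most, with 118 counts in all.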
